A study of Mus musculus with 20 samples.

Results

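The peroxisome proliferator-activated receptors and the PGC-1 family of coactivators were followed in mouse liver after targeting of Hira, the gene for a chaperone that places the histone variant H3.3 on chromatin. The set holds 6 genes chosen by symbol from the 55421 genes of the count table, namely the receptors Ppara, Ppard and Pparg and the coactivators Ppargc1a, Ppargc1b and Pprc1. All 6 passed the filter of at least 10 counts in total. The family was proposed with results of these data in view, including the lower level of Ppard at 3 weeks, so the members' differences between HIRA KO and control at 3 weeks are given as a description with no test. For Ppard the same holds for every comparison that uses the 3-week libraries. For the other 5 members the comparisons over time were tested, on libraries that include those of 3 weeks.

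Bulk RNA-seq of whole liver gave 20 libraries in 4 groups of 5. All mice were wildtype C57BL/6 animals, labelled female, that received AAV8 with Staphylococcus aureus Cas9 under the hepatocyte promoter Tbg and a U6-driven guide at 6 months of age. The guide was directed at HIRA (HIRA KO) or at Rosa26, a safe-harbour locus (control), and livers were taken 3 weeks or 6 months later, so every group carried Cas9 and virus. The Tbg promoter confines Cas9 to hepatocytes, other liver cells were not targeted, and whole-liver RNA cannot tell fewer cells of a type from less RNA per cell.

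PPARs are nuclear receptors that bind fatty acids and their derivatives and act on DNA as heterodimers with retinoid X receptors. PPARα drives fatty acid oxidation and ketogenesis in the fasted hepatocyte, PPARγ promotes lipid storage and rises in the fatty liver, and PPARδ is expressed broadly and also acts on fatty acid use. PGC-1α and PGC-1β do not bind DNA themselves but are recruited by such receptors to raise mitochondrial and, for PGC-1α, gluconeogenic gene expression. PRC, the protein of Pprc1, is the third member of the family and responds to growth signals.

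Libraries held between 19916430 and 24079736 counts in genes. In 19 libraries Xist had 6286 to 8436 counts and 4 Y-chromosome genes together had 0 to 13. HIRA KO 6 months replicate 5 had 9 counts of Xist and 2041 of the Y genes, against its female label, and the members' 6-month values and those of genes named from the pathway lists are given with and without it. Hira itself had 128 to 171 counts in 3-week controls and 87 to 127 in 3-week HIRA KO livers. The groups did not overlap, as for 1.24% of all genes that lay below. The log2 fold change of Hira, -0.48 ± 0.14 (SE), did not pass the test over all genes (adjusted p = 0.197). The paper reports loss of HIRA protein by western blot after this targeting, which RNA counts do not measure. At 6 months the Hira RNA counts overlapped, at 105 to 157 in controls and 109 to 136 in HIRA KO (log2 fold change -0.10 ± 0.14, adjusted p = 0.794, or -0.16 without replicate 5). The hepatocyte markers were abundant throughout, and the 9 measured (Alb, Ttr, Apoa1 and others) together held 87929 to 167854 CPM (counts scaled to a common library size).

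On the authors' FPKM scale, which corrects for gene length, Ppara was the most abundant member over the 20 libraries at 12.1 ± 2.05 (SD, n = 20). Pparg followed at 5.65 ± 1.75 and Ppard at 5.28 ± 2.97, levels that lay within each other's spread. Pprc1 stood at 3.38 ± 1.41, Ppargc1a at 1.00 ± 0.200 and Ppargc1b at 0.736 ± 0.203, and the last pair also lay close together. With counts divided by exon length instead (RPKM), Pparg stood at 3.94 ± 1.16, Ppard at 2.63 ± 1.53 and Pprc1 at 2.35 ± 0.797. Ppara came first and Ppargc1a and Ppargc1b came last in each of the 4 groups. The middle places changed with the group, because Ppard ranked next to Ppara in 3-week controls at 9.35 ± 2.70 FPKM (SD, n = 5) and below Pparg and Pprc1 in 3-week HIRA KO at 3.48 ± 0.802.

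**Figure D1:**
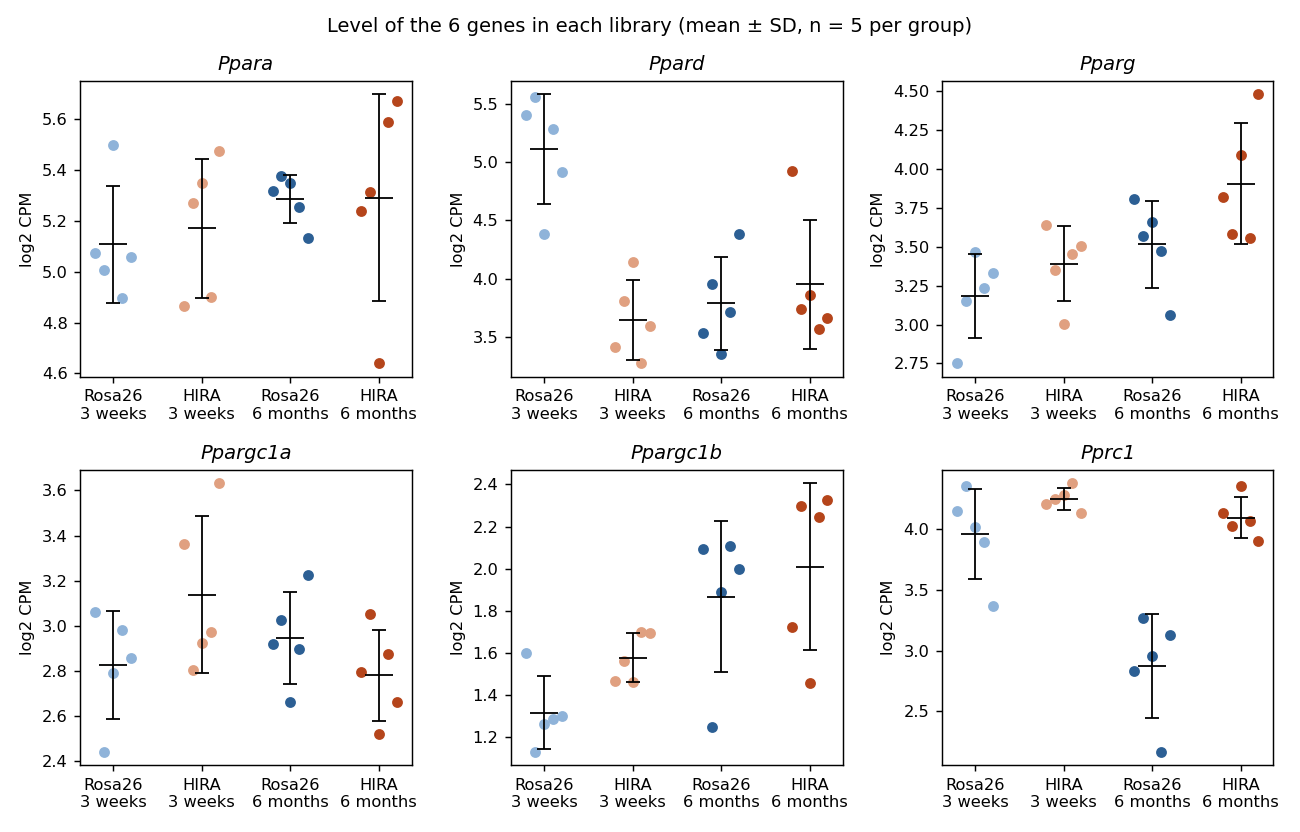
Level of each of the 6 genes in log2 CPM (vertical axes, each with its own range) in the 4 groups of 5 livers (horizontal axes). Points are libraries and bars the group mean ± SD; Ppard stood high in 3-week controls and Pprc1 stood low in 6-month controls, while the other genes overlapped between HIRA KO and control at both times.

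Ppara, the fasting receptor of the hepatocyte, showed no difference between groups past the test. It had 642 to 975 counts in 3-week controls, 630 to 929 in 3-week HIRA KO, 763 to 943 in 6-month controls and 599 to 999 in 6-month HIRA KO livers. The 4 groups overlapped, and the spread was widest in 6-month HIRA KO. The log2 fold change of HIRA KO against control was 0.07 ± 0.16 (SE) at 3 weeks and 0.04 ± 0.16 at 6 months. The 6-month value did not pass the test (adjusted p = 0.929), and its 95% interval ran from -0.26 to 0.35. Without the library with male marker counts the 6-month value was -0.055.

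Ppard, the broadly expressed receptor, showed the largest 3-week difference of the family. The 5 control libraries had 835, 941, 449, 860 and 646 counts and the 5 HIRA KO libraries 229, 297, 364, 219 and 252. Every HIRA KO library lay below every control, as for 1.24% of all genes, with the narrowest gap at control replicate 3. Mean levels were 5.11 ± 0.47 log2 CPM (SD, n = 5) in controls and 3.65 ± 0.34 in HIRA KO, a log2 fold change of -1.49 ± 0.26 (SE) or 0.356 times the control level. This difference was known when the family was chosen.

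At 6 months no difference in Ppard passed the test. Controls had 270, 330, 236, 282 and 452 counts and HIRA KO livers 772, 292, 348, 241 and 247, and the groups overlapped. The log2 fold change was 0.22 ± 0.26, with an interval from -0.29 to 0.73, and adjusted p = 0.754. It was 0.30 ± 0.27 without the library with male marker counts. HIRA KO replicate 1, with 772 counts, stood alone within its group at the level of the 3-week controls, and without it the value turned to -0.13 ± 0.22. Ppard in the controls themselves was lower at 6 months than at 3 weeks by -1.34 ± 0.26 on the log2 scale, again without overlap, which held for 1.81% of all genes. That comparison and the 3-week one share the 3-week control libraries, so they are set side by side and no test is given for either.

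The level of Ppard ran opposite to clock genes of the liver library by library. Nr1d2, which encodes the clock repressor REV-ERBβ, had 320, 362, 702, 515 and 698 counts in 3-week controls and 1400, 950, 863, 1574 and 1270 in 3-week HIRA KO. At 6 months it had 870 to 1369 counts in controls, and in HIRA KO 668 in replicate 1 against 1075 to 1295 in the others. The liver with the high Ppard level at 6 months was therefore also the liver with the least Nr1d2 in its group. Over the 20 libraries Pearson's r of the log2 CPM values of Ppard and Nr1d2 was -0.97 and Spearman's rho -0.97, the lowest r among 12897 genes compared with Ppard. With each group centred on its own mean r was -0.93, without the 3-week controls it was -0.96 (n = 15), and without the 2 libraries farthest from the median of Nr1d2 it was -0.97 (n = 18).

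Other clock genes differed at 3 weeks as well. Since clock genes are described here for the way they ran with Ppard, their 3-week values and their change over time in controls are given as a description with no test. All 9 evening clock genes were higher in sign in 3-week HIRA KO, as were 49.0% of all genes, and their median log2 fold change was 1.43. Dbp, a transcription factor driven by the clock, had 30 to 76 counts in 3-week controls and 187 to 2372 in HIRA KO, a log2 fold change of 4.55 ± 0.79. For both Dbp and Nr1d2 every HIRA KO liver lay above every control, as for 1.45% of all genes. With 1 library left out at a time the log2 fold change ran from 4.11 to 4.81 for Dbp and from 1.08 to 1.32 for Nr1d2. In controls at 6 months against 3 weeks, a comparison that shares the 3-week controls, the median of the 9 was 1.35 and Dbp stood at 4.40 ± 0.79. The 5 morning clock genes were all lower in sign in 3-week HIRA KO, at a median of -1.04. At 6 months none of these 14 genes passed. Npas2, a partner of the clock activator BMAL1, was among the genes whose pattern was most like Ppard (r = 0.86), beside Lgalsl (0.86). The hour at which each liver was taken is not given in the sources used here, and the part of the clock genes in the difference of Ppard was not tested.

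**Figure D2:**
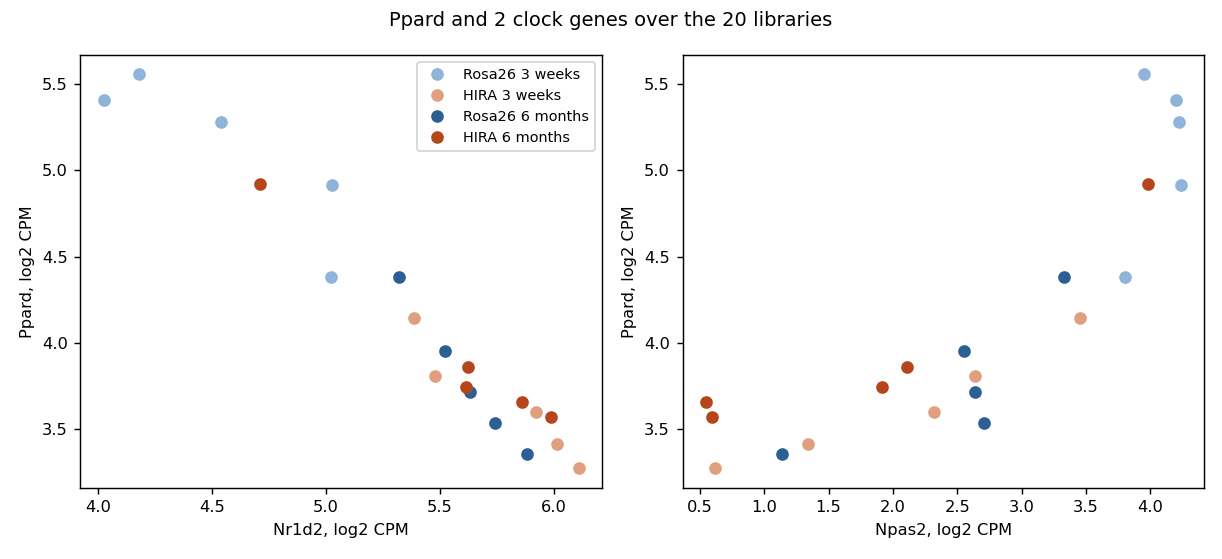
Ppard (vertical axes, log2 CPM) against the clock genes Nr1d2 (left) and Npas2 (right, both in log2 CPM), with a point for each of the 20 libraries coloured by group. Ppard was lower in the libraries with more Nr1d2 (r = -0.97), and the 6-month HIRA KO library with 772 counts of Ppard lay beside the 3-week controls in both panels.

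The promoter of Ppard is shown because clock factors act through short DNA elements near start sites. The bases before the first annotated start lie at chr17:28232504-28232699 on the plus strand (RefSeq, GRCm38.p6, cut where the GENCODE gene begins).
Ppard: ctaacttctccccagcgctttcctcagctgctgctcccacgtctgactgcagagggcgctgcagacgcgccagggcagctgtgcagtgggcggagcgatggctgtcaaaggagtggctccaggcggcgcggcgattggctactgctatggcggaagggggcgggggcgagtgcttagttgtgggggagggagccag
The search covered 250 bases before to 50 after the start, on both strands. It looked for the E-box CACGTG, the D-boxes TTATGTAA and TTACGTAA, and NTAGGTCA, the element of ROR and REV-ERB receptors, which contains the shorter receptor site AGGTCA. None was found in the Ppard window. They were present in 7.15%, 0.938%, 0.119% and 2.59% of the 32851 promoters of the table. The E-box was in the window of 3 of the 8 evening clock genes listed there (Ciart, Per1 and Tef). TTATGTAA was in 1 of the 8 (Per3), and TTACGTAA and NTAGGTCA were in 0. Exact matches in so short a window can thus miss elements even in clock genes, and clock control of Ppard was not tested.

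Pparg, the receptor of lipid storage, had 131 to 237 counts in 3-week controls and 164 to 269 in HIRA KO, a log2 fold change of 0.20 ± 0.18. At 6 months controls had 326, 253, 292, 238 and 180 counts and HIRA KO livers 359, 261, 409, 239 and 437. The highest 3 values were in HIRA KO, yet the groups overlapped. The log2 fold change was 0.41 ± 0.18, with an interval from 0.07 to 0.76, and did not pass (adjusted p = 0.251, unadjusted p = 0.0277 in edgeR). The highest value was in replicate 5, the library with male marker counts, and without it the log2 fold change was 0.25 ± 0.16 (adjusted p = 0.452).

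Ppargc1a encodes PGC-1α, the fasting-induced coactivator of gluconeogenesis and mitochondrial genes. It had 107 to 173 counts in 3-week controls and 147 to 258 in 3-week HIRA KO, a log2 fold change of 0.33 ± 0.16. At 6 months it had 145 to 202 in controls and 123 to 180 in HIRA KO, at -0.17 ± 0.16 (adjusted p = 0.677, interval from -0.48 to 0.15), and at -0.14 ± 0.17 without the library with male marker counts. The values had opposite signs at the 2 times, but their difference of -0.50 ± 0.23 did not pass (adjusted p = 0.737), as for all 22867 genes in that comparison, of which 1514 (6.62%) had an unadjusted p under 0.05. DESeq2 and limma also called none there.

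Ppargc1b encodes PGC-1β, a coactivator of mitochondrial and lipogenic genes, and was the least abundant member. It had 42 to 58 counts in 3-week controls and 55 to 72 in 3-week HIRA KO, a log2 fold change of 0.26 ± 0.19. At 6 months it had 49 to 98 in controls and 64 to 106 in HIRA KO, at 0.15 ± 0.18 (adjusted p = 0.762, interval from -0.21 to 0.51). Without the library with male marker counts it was 0.07 ± 0.19 (adjusted p = 0.901). The 6-month control value of 49 stood apart from the other 4, which were 84 to 98. In controls Ppargc1b was higher at 6 months than at 3 weeks by 0.59 ± 0.19 on the log2 scale, which did not pass (adjusted p = 0.162). Over 9 alternative settings this difference of Ppargc1b ran from 0.255 to 0.61. A small RNA gene model within its bounds, Gm25301 on the opposite strand, held 10.0% as many counts.

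Pprc1, the coactivator that responds to growth signals, was the 1 member of 6 that passed the test at 6 months, where 0.695% of all genes passed as higher. The 6-month controls had 165, 204, 178, 95 and 189 counts and the HIRA KO livers 445, 354, 489, 339 and 291. Every HIRA KO library lay above every control, as it did for 1.41% of all genes. Mean levels were 2.87 ± 0.43 log2 CPM (SD, n = 5) in controls and 4.09 ± 0.17 in HIRA KO. The log2 fold change was 1.19 ± 0.17 (SE), a 2.29-fold higher level, and Pprc1 ranked 1 of 22867 genes by p in this comparison (adjusted p = 0.0105). The family was chosen with results of these data in view, so the pass and rank of Pprc1 are not independent evidence. Without the library with male marker counts it was 1.24 ± 0.18 (adjusted p = 0.00361). With only the 10 libraries of 6 months in the fit the fold change was as large but adjusted p was 0.0868, and no gene passed there.

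At 3 weeks the groups of Pprc1 overlapped. Controls had 347, 406, 348, 327 and 220 counts and HIRA KO livers 397, 403, 398, 471 and 365, a log2 fold change of 0.26 ± 0.16. The lowest group was thus the 6-month controls, and both groups of HIRA KO livers and the 3-week controls stood near each other at 4.24 ± 0.09, 4.09 ± 0.17 and 3.95 ± 0.37 log2 CPM. In controls Pprc1 was lower at 6 months than at 3 weeks by -1.08 ± 0.17 (adjusted p = 0.0152), where 0.179% of all genes passed as lower. The 6-month and the time comparison share the 6-month controls and are not independent of each other. Without 3-week control replicate 1 the fall over time had adjusted p = 0.05004, and with FPKM values adjusted p was 0.186. The change in the HIRA KO difference between the times was 0.93 ± 0.24 and did not pass (adjusted p = 0.614). Over 8 alternative settings this change ran from 0.32 to 0.93.

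**Figure D3:**
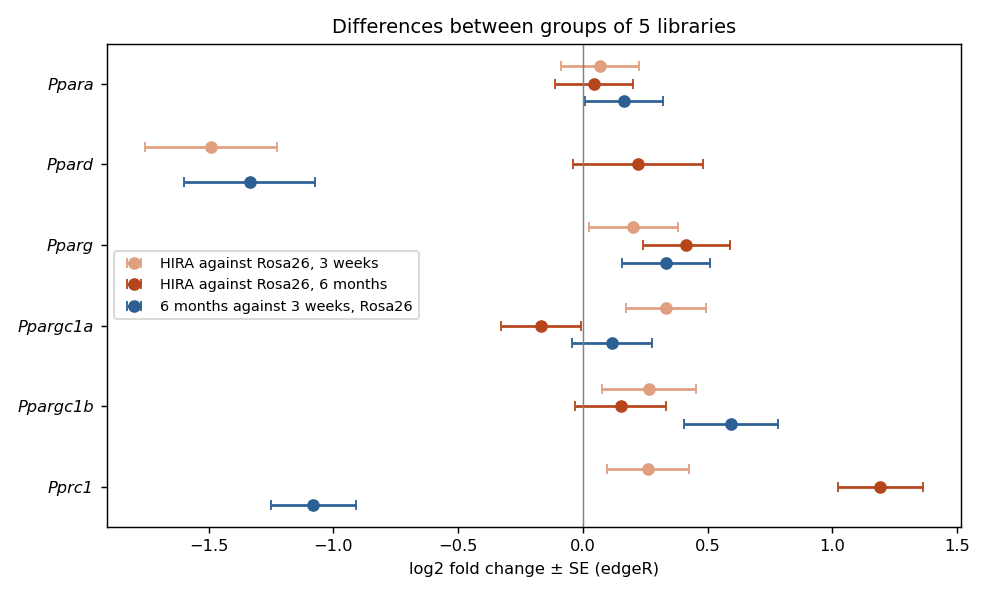
Log2 fold change (horizontal axis, edgeR, bars ± SE) of the 6 genes (vertical axis) for HIRA KO against control at 3 weeks and at 6 months and for 6 months against 3 weeks in controls. Ppard lay far below 0 at 3 weeks (-1.49) and Pprc1 far above 0 at 6 months (1.19), and both lay below 0 in controls over time.

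Part of the Pprc1 gene model is shared with a neighbour. Pprc1 lies at chr19:46044886-46072915 on the plus strand (GRCm38), and 1 of its 11 transcripts starts within an exon of Ldb1 on the opposite strand, so that 177 of its 6284 exonic bases (2.82%) are common to both. Whether counting used the strand is not stated, and reads in that stretch cannot be assigned to either gene with certainty. Ldb1, a nuclear adaptor protein, held 633 to 776 counts in 6-month controls and 717 to 1110 in HIRA KO. Its log2 fold change of 0.39 ± 0.10 did not pass (adjusted p = 0.0560), and its level over the 20 libraries followed that of Pprc1 with r = 0.75, or 0.32 with groups centred. The part of these shared bases in the Pprc1 difference was not tested.

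The promoter of Pprc1 was placed by RefSeq at a start site inside the gene, downstream of the bases shared with Ldb1. The 250 bases before it are shown to set the sequence beside the receptors that the family serves, and the capitals mark the 1 receptor site AGGTCA found. The window is chr19:46056289-46056538 on the plus strand (RefSeq, GRCm38.p6).
Pprc1: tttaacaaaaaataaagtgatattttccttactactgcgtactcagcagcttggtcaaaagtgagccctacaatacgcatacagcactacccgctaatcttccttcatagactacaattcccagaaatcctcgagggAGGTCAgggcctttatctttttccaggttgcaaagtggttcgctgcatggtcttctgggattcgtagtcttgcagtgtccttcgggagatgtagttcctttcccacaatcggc
The AGGTCA site was present in 16.3% of the 32851 promoter windows and, among the members listed, also in Pparg. The full PPAR element AGGTCANAGGTCA was in 0.0396% of windows and in none of the members.

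Among the genes whose pattern was most like Pprc1 over the 20 libraries were Mphosph10 (r = 0.92) and Ppan (0.91). Mphosph10 had 77 to 147 counts in 6-month controls and 156 to 238 in HIRA KO. It shared with Pprc1 the low level in 6-month controls, and without that group r was 0.50 (n = 15). Spearman's rho was 0.65, and without the 2 libraries farthest from the median of Mphosph10 r was 0.83 (n = 18). With groups centred r was 0.72 for Mphosph10 and 0.70 for Ppan. Likeness for the other members was weaker. The closest named genes included Arrdc3 and Optn for Ppara (r = 0.77 for both), Zfp367, Prune1 and Smurf1 for Pparg (0.78 to 0.81), Zbtb39, Agtr1a and Tcp11l2 for Ppargc1a (0.73 to 0.79) and Reep6, Pdk2 and Ces1e for Ppargc1b (0.79 to 0.83).

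**Figure D4:**
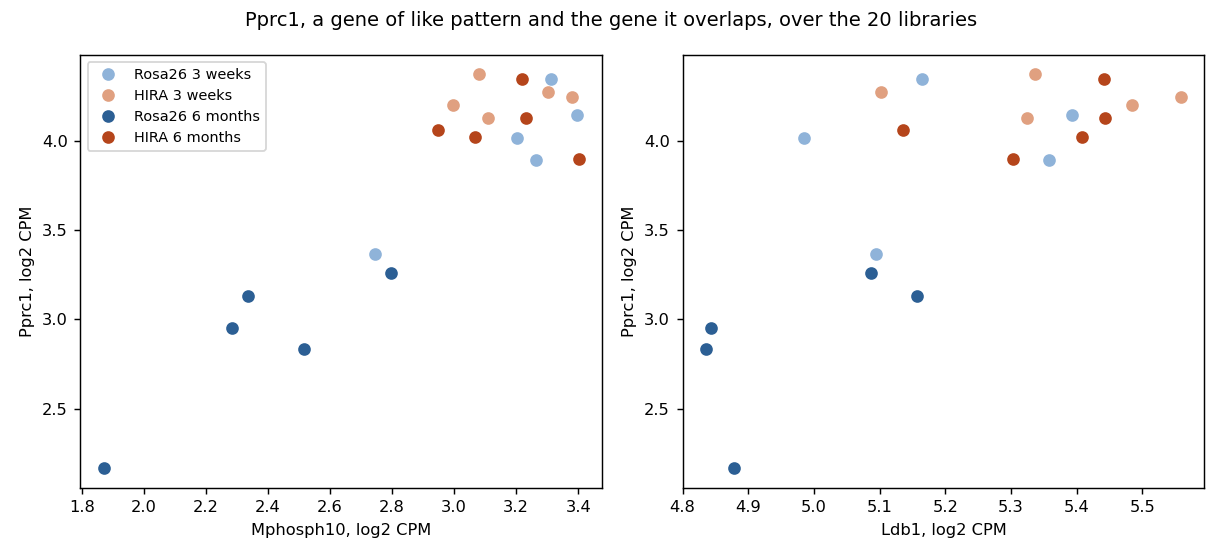
Pprc1 (vertical axes, log2 CPM) against Mphosph10, a gene of like pattern (left), and Ldb1, the gene it overlaps (right, both in log2 CPM), with a point for each of the 20 libraries coloured by group. The 5 libraries of 6-month controls lie at the low end of Pprc1 in both panels (r = 0.92 with Mphosph10 and 0.75 with Ldb1).

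The pathway lists below were written with earlier results of these data known, so calls among their genes are not independent evidence. The target genes of PPARα were followed as a list of 40 genes of fatty acid oxidation, ketogenesis and lipid handling. None passed at 3 weeks and none at 6 months, where 0.197% and 1.31% of all genes passed. At 6 months 34 of 40 were higher in sign in HIRA KO, as were 54.3% of all genes, and the median log2 fold change was 0.19 against 0.03 for all genes. Without the library with male marker counts 29 of 40 were higher in sign and the median was 0.12. With all libraries 5 of 40 were higher at an unadjusted p under 0.05, a rule that 8.68% of all genes met as higher. The largest value was that of Fgf21, the fasting hormone of the liver, with 14 to 55 counts in controls and 38 to 276 in HIRA KO (2.02 ± 0.67, adjusted p = 0.142). Acot1, an acyl-CoA thioesterase, had 246 to 497 counts in controls and 503 to 2332 in HIRA KO (1.30 ± 0.54, adjusted p = 0.246). The highest Fgf21 and Acot1 counts of that group were both in replicate 1, the liver with the high Ppard level, and without it the values were 1.59 and 0.68. Cyp4a14, a fatty acid hydroxylase, stood at 1.16 ± 0.47 (adjusted p = 0.237) and fell to 0.56 without that library, and Angptl4, an inhibitor of lipoprotein lipase, at 0.99 ± 0.47 (adjusted p = 0.312). With replicate 5 left out the 4 genes stood at 1.92 (Fgf21), 1.41 (Acot1), 1.26 (Cyp4a14) and 1.11 (Angptl4). Acot1 and Cyp4a14 belong to families of near-identical copies, so their counts are uncertain.

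At 3 weeks the largest values of this list were Fgf21 at -1.27 ± 0.64, Pdk4, which restrains glucose oxidation, at -0.74 ± 0.47, Acot3 at 0.62 ± 0.45 and Plin2, a lipid droplet protein, at -0.48 ± 0.24 (adjusted p from 0.592 to 0.770). In controls over time Cd36, the fatty acid transporter that is a target of both PPARα and PPARγ, was higher at 6 months by 1.10 ± 0.24 (adjusted p = 0.0497), the single gene of the list to pass, where 0.144% of all genes passed as higher. That call was lost in 15 of 20 fits with a single library left out. Fgf21 was lower over the same time by -2.26 ± 0.67 and did not pass (adjusted p = 0.139).

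Of 12 genes of PPARγ-driven lipid storage, 1 passed at 6 months, as higher, where 0.695% of all genes did. The list was written with earlier results of these data known, so this call is not independent evidence. Plin4, which coats lipid droplets, had 121, 163, 155, 123 and 96 counts in controls and 439, 436, 403, 122 and 874 in HIRA KO. It was higher in 4 of 5 HIRA KO livers and at the control level in replicate 4. The log2 fold change was 1.82 ± 0.33 (adjusted p = 0.0141), and without the library with male marker counts 1.34 ± 0.26 (adjusted p = 0.0135). With only the 10 libraries of 6 months in the fit adjusted p was 0.128. The droplet proteins Cidec and Cidea were high in that library alone, at 1193 and 223 counts against 53 to 69 and 0 to 3 in the other HIRA KO livers of 6 months, and did not pass (adjusted p = 0.0597 and 0.0545). Without it their log2 fold changes were 0.39 and 1.04. Of the adipocyte markers in the 6-month HIRA KO group, Lep was at 0 counts, Adipoq at 0 to 2, Retn and Plin1 at 0 to 3 and Cfd at 0 to 111, and the 6 markers together held 1036 to 6113 CPM against 1605 to 3806 in controls, nearly all of it Car3. The highest sum was in the same replicate 5, and the other HIRA KO livers reached 1036 to 2396 CPM. In 6-month controls Adipoq, Lep, Retn, Cfd and Plin1 had at most 3 counts each. The sum was thus Car3 there as well and does not measure adipocytes. None of the 12 passed at 3 weeks.

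Of 23 partners and targets of the PGC-1 family, none passed at 3 weeks or at 6 months, with medians of -0.07 and -0.01. The largest values at 6 months were Alas1, the first enzyme of haem synthesis, at 0.59 ± 0.23 (adjusted p = 0.214) and Esrrb, a nuclear receptor, at 0.43 ± 0.28 (adjusted p = 0.498). G6pc, which releases free glucose and is induced through PGC-1α, stood at -0.78 ± 0.34 at 3 weeks (adjusted p = 0.496) and 0.36 ± 0.34 at 6 months (adjusted p = 0.667). Without the library with male marker counts the 6-month median was -0.05, and Alas1 stood at 0.73, Esrrb at 0.53 and G6pc at 0.22. In controls over time Idh3a, a subunit of a citric acid cycle enzyme, fell by 0.54 ± 0.12 on the log2 scale (adjusted p = 0.0497) and was the 1 gene of the list to pass, where 0.179% of all genes passed as lower, a call lost in 13 of 20 fits with a single library left out. Of 26 heterodimer partners and coregulators none passed in any comparison. Rxrg, a retinoid X receptor, stood at -0.50 ± 0.15 at 3 weeks (adjusted p = 0.223) and -0.42 ± 0.15 at 6 months (adjusted p = 0.165), and Nr0b2, the repressor SHP, at -0.76 ± 0.28 and 0.34 ± 0.27. Without the same library the 6-month values were -0.37 and 0.14.

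The 13 lipogenic genes of the fed liver gave no call at either time. At 3 weeks 11 of 13 were higher in sign, as were 49.0% of all genes, at a median of 0.28, and the largest were Thrsp at 0.92 ± 0.49 and Pnpla3 at 0.63 ± 0.43 (adjusted p = 0.630 and 0.758). At 6 months 6 of 13 were higher in sign, at a median of -0.07, and Pnpla3 stood at -0.95 ± 0.44 (adjusted p = 0.297). With replicate 5 of that group left out 5 of 13 were higher in sign, the median was -0.07 and Pnpla3 stood at -0.72. Chow was freely available to the mice, and the hour of sampling is not given in the sources used here.

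**Figure D5:**
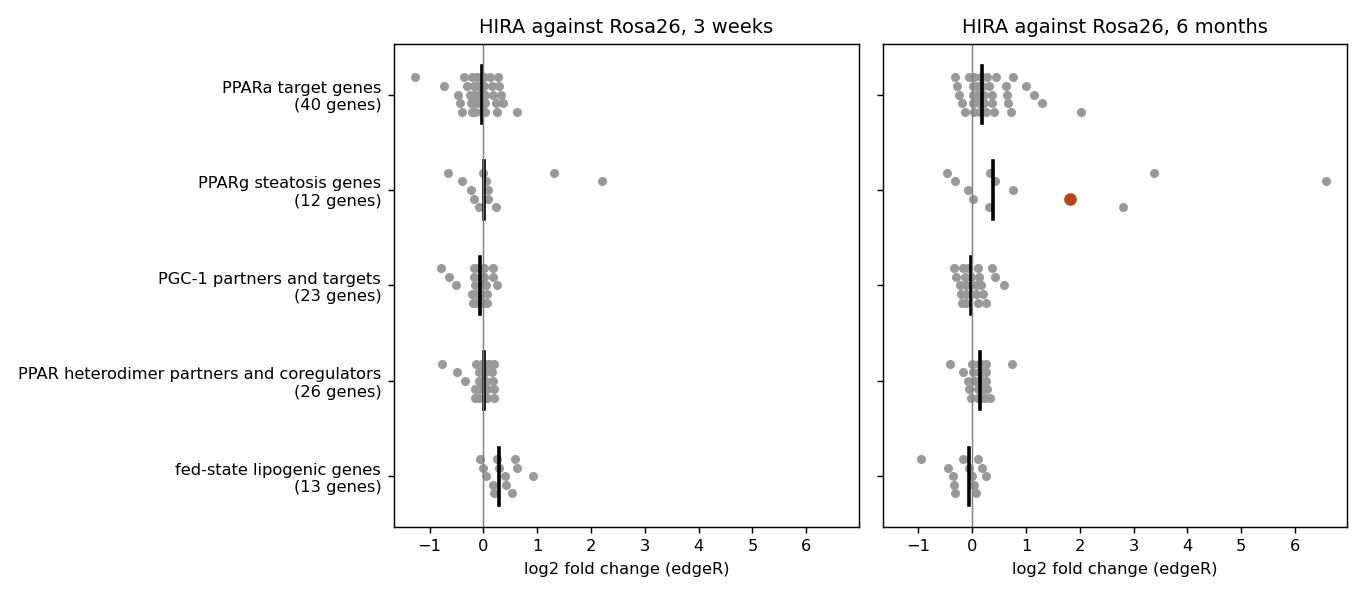
Log2 fold change of HIRA KO against control (horizontal axes, edgeR) at 3 weeks (left) and 6 months (right) for each gene of 5 lists (vertical axis), with a thick line at each median and the gene that passed the test in red. Plin4, among the lipid storage genes of PPARγ at 6 months, is the red point (1.82).

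The other cell types of the liver were measured beside the 6-month difference of Pprc1. The hepatocyte markers summed to 87929 to 128055 CPM in controls and 105771 to 147713 in HIRA KO, at a median log2 fold change of 0.02, or -0.20 without the library with male marker counts. Of the 9, the receptor Asgr1 passed as lower (-0.34 ± 0.08, adjusted p = 0.0470), where 0.612% of all genes did. That call was lost in 17 of 20 fits with a single library left out. It was also lost in 3 of 9 other settings, among them the replicate block (adjusted p = 0.0525 in edgeR). No gene of the other lists of liver cell types passed.

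The library with male marker counts held the lowest stellate, endothelial, macrophage, cholangiocyte and lymphocyte sums of its group. The 8 stellate cell markers were all higher in sign in HIRA KO, as were 54.3% of all genes with all libraries in the fit. They summed to 201 to 359 CPM in controls and 211 to 857 in HIRA KO, or 332 to 857 without that library. At an unadjusted p under 0.05 as higher there were 2 of 8 with it, where 8.68% of all genes met that rule, and 7 of 8 without it, where 9.94% did. The median went from 0.50 to 0.63. The 6 endothelial markers were also all higher in sign, at 121 to 232 CPM in controls and 143 to 250 in HIRA KO, or 179 to 250 without it (medians 0.30 and 0.43). The 7 macrophage markers were all lower in sign with that library, at 240 to 1754 CPM in controls and 147 to 1049 in HIRA KO. Without it the HIRA KO sums were 375 to 1049 CPM, 4 of 7 were higher in sign and the median turned from -0.18 to 0.06. All 6 lymphocyte markers (median 0.39, or 0.59 without it) and 4 of 5 cholangiocyte markers (0.22, or 0.41) were higher in sign, where 54.3% of all genes were. Summed levels overlapped between the groups for each of these types with and without that library, and their part in the difference of Pprc1 was not tested.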

How the data were processed

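Sample titles gave the groups and replicate numbers. Per the study, reads were aligned to mm10 by STAR, and the authors deposited counts of whole reads for each gene, not normalized, and FPKM values. The processing notes also name HTSeq and Cufflinks, the methods name HOMER for counting, and strand use is not given in the sources used here. On the sex of these mice the paper's text (male) and a legend (female) differ. The deposited counts were tested with the quasi-likelihood test of edgeR 4.0.16 (R 4.3.3) in a single fit of 20 libraries with 4 group means, with TMM scaling, a filter of at least 10 counts in total (22867 genes) and Benjamini-Hochberg adjustment over all genes. Passed means an adjusted p under 0.05. Log2 CPM used a prior count of 2. The deposited FPKM values served for levels between genes and, as log2(FPKM + 1), in limma 3.58.1. DESeq2 1.42.0, limma-voom, other filters and scalings, a replicate block and the removal of each library were alternatives. Simulated counts were used to test edgeR, limma-voom and DESeq2, but not limma on FPKM values. Mice were kept 5 to a cage, and no source used here ties replicates to cages or litters, so p-values measure the spread between these libraries. In the 40 pairs of replicates the counts differed beyond sampling noise (chi-square per degree of freedom from 13.7 to 109).

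The members and gene lists were chosen with earlier results of these data known. Besides the members and Hira, the text names the 3 genes of highest r for each member (mean of at least 1 CPM, unnamed models left out, and some not reported here), genes that overlap a member, list genes that passed or had up to 4 of the largest values in a comparison, and clock or cell type genes that moved with a member. Acot1, Cyp4a14 and the single-library values were singled out after their values were seen. The promoter windows came from RefSeq (GRCm38.p6), with 5 of 6 members listed.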

Additional observations from a re-analysis of the deposited data

Results flagged for a closer look

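In 24 groups of 5 libraries, the gap of the highest or lowest library to the next exceeded Dixon's critical value at 95% for 2 member values, and chance gives about 1 such group in 20. Ppard in 6-month HIRA KO replicate 1 stood at 4.92 log2 CPM with the next library at 3.86. Ppargc1b in 6-month control replicate 2 stood at 1.25 log2 CPM with the next at 1.89.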

How the results depend on the processing

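For Pprc1 at 6 months the difference ranged from 0.81 to 1.23 over 9 alternative settings and from 1.05 to 1.29 with single libraries left out (highest adjusted p 0.0267). It missed the threshold only in the fit of the comparison's own libraries (1.19, adjusted p = 0.0868). Its fall in controls was -0.62 and -0.89 with FPKM at pseudocounts of 1 and 0.1, neither past the threshold, and -1.20 to -0.94 with single libraries left out. On the same FPKM scales Ppara turned in controls over time (-0.054 and -0.057) and in the change between times (0.047 and 0.047). At 3 weeks FPKM gave 0.11 for Ppargc1b (pseudocount 1) and 0.61 for Pprc1 (pseudocount 0.1). With single libraries left out Ppard at 6 months ran from -0.13 to 0.40, Ppara ran from -0.055 to 0.18 at 6 months and from -0.14 to 0.11 for the change between times, and Ppargc1b from -0.24 to 0.0083 for the latter. The cause of these shifts was not tested.

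The counts of list genes that passed moved as follows. For PPARα targets in controls over time, DESeq2 gave 3 and FPKM 0 with both pseudocounts. For the PPARγ list at 6 months there were 3 without the count filter, 2 with filterByExpr and 0 in the comparison's own libraries. For the same list in controls over time DESeq2 gave 2, the comparison's own libraries 0 and FPKM 0. For the PGC-1 list DESeq2 gave 3 at 6 months, and in controls over time 2 with the replicate block, 3 with DESeq2, 0 with limma-voom, 2 without the count filter, 2 with filterByExpr and 0 in the comparison's own libraries. For coregulators DESeq2 gave 1 at 6 months, and for lipogenic genes the comparison's own libraries gave 1 at 3 weeks. With single libraries left out the counts ran from 0 to 1 for PPARα targets in controls over time, 1 to 3 for the PPARγ list at 6 months, 0 to 1 for it in controls over time and in the change between times, 0 to 2 for the PGC-1 list in controls over time and 0 to 1 for coregulators at 6 months.

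Same-numbered libraries deviated together by r from 0.00 to 0.30 at 3 weeks (2 of 5 over 0.1) and from -0.12 to 0.30 at 6 months (2 of 5). Of 5 control libraries at each time, 2 at 3 weeks and 0 at 6 months matched best with the HIRA KO library of their number. With 5 libraries per group these values do not settle whether the numbers mark a pairing. With the replicate block Pprc1 at 6 months was 1.20 (adjusted p = 0.00620), and over all genes 54, 324 and 151 genes passed at 3 weeks, at 6 months and in controls over time, against 45, 299 and 74 without it. With counts as low as 42, Ppargc1b had the widest counting error of the members.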
